A study of Homo sapiens with 20 samples.

Results

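The effect of silencing the histone demethylase LSD1 was compared between the human prostate cancer lines C42B and LNCaP, gene by gene, as the change in C42B minus the change in LNCaP. The comparison used the 12 siRNA arrays of the 20 in the series, chosen from their labels alone, and covered 19775 genes with 1 probe set each. LNCaP is an androgen-responsive line from a lymph node metastasis, and C42B is a castration-resistant line derived from it through growth in mice. Each line had 3 arrays with siRNA against LSD1 (siLSD1) and 3 with the control siRNA labelled siNTC.

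The lines were not handled alike. C42B cells, plated in RPMI with 10% FBS, had siRNA for 6 h, followed by 96 h of RPMI containing 10% CSS, an abbreviation that usually stands for charcoal-stripped, steroid-poor serum. RNA from 6 separate wells gave the 3 replicates. LNCaP cells received siRNA at 50 nM with Dharmafect 3 and spent the 96 h in RPMI with 10% FBS, and RNA of 2 wells was pooled for each replicate. The siRNA dose for C42B and the siRNA sequences were not used here. The labels name a pair of RNA labelling kits without saying which arrays had which. Line, medium, transfection and any difference in kit therefore cannot be told apart in what follows, and a difference is called one between the lines only for short. The C42B wells are not said to be separate transfections, so the p-values measure the spread between these arrays, which may be partly technical.

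LSD1, encoded by KDM1A, removes methyl groups from lysines of histone H3 and works with CoREST proteins and histone deacetylases to repress genes. In prostate cells it also binds the androgen receptor and can act as its coactivator. In other cancer cells its loss is known to release endogenous double-stranded RNA and switch on interferon-stimulated genes, and it is also known to slow the cell cycle.

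All values below are log2 intensities or differences of them, errors of differences are standard errors from the limma fit, and passing means an adjusted p below 0.05. A difference above 0 means that siLSD1 raised the gene more, or lowered it less, in C42B than in LNCaP. A difference below 0 means the reverse. A group with a mean under 6 was called dim, since the files give no detection calls. Array medians ran from 78.4 to 81.2 intensity units in C42B and from 63.3 to 65.1 in LNCaP. Levels were therefore not compared between the lines, only changes within each. Replicate arrays differed from each other with an SD over genes of 0.120 to 0.193. The 3′ to 5′ contrast of the actin control probes, a sign of RNA quality, rose with siLSD1 by 0.097 in C42B and 0.0999 in LNCaP. The C42B shift minus that of LNCaP was -0.0029. Of 13 measured markers of leukocytes, endothelium, stroma, blood, liver and muscle, none passed. In several alternative fits 1 did, among them median centring, scale normalization and the fit without C42B siLSD1 replicate 1. Of the 13 markers, 7 were dim in every group, the leukocyte marker PTPRC included. The markers' summed intensity ran from 927 to 959 and from 938 to 947 in the C42B siLSD1 and siNTC arrays, and from 768 to 814 and from 823 to 896 in those of LNCaP. EPCAM, KRT8, KRT18, HOXB13 and KLK3, which mark luminal prostate cells, were bright in all 4 groups.

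KDM1A itself fell in both lines. In C42B its level was 8.03, 7.83 and 7.80 with siLSD1 against 10.29, 10.36 and 10.21 with siNTC. LNCaP arrays read 7.26, 7.40 and 7.25 against 9.95, 10.05 and 10.23. The groups did not overlap in either line, and the transcript fell by 2.40 ± 0.08 (5.29-fold) in C42B, and fell by 2.78 ± 0.08 (6.85-fold) in LNCaP. The deeper fall in LNCaP gave a difference of 0.37 ± 0.12, which did not pass (limma, adjusted p = 0.063) but did in 6 of the alternative fits, where it reached at most 0.55. KDM1A has 1 probe set here.

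The difference between the lines passed for 2300 genes, which is 11.6% of those tested. It was above 0 for 1100 genes (5.56%) and below 0 for 1200 (6.07%). Without adjustment, 5016 genes had a p under 0.05. Most of the passing differences were modest: the median size was 0.45, and 58 genes above 0 and 46 below 0 reached 2-fold. The median over all genes was -0.02. In 2211 of the passing genes (11.2% of all tested, against 16.9% for this criterion alone) every siLSD1 to siNTC difference of 1 line lay above every such difference of the other. There were 114 passing genes that were dim in all 4 groups. Of the 12080 genes bright in all 4, 1966 passed.

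The larger change was usually that of LNCaP. Among the passing genes, 1837 (79.9%) had the larger change there, compared with 57.8% of all genes tested. On its own, siLSD1 raised 3033 genes (15.3%) and lowered 2851 (14.4%) in LNCaP, and raised 1804 (9.12%) and lowered 1994 (10.1%) in C42B. The passing differences split accordingly. The change passed in LNCaP alone for 1160 genes, and for 602 it passed in both lines in 1 direction and was larger in LNCaP. It passed in C42B alone for 338 genes and was shared but larger in C42B for 49. In 88 genes the lines moved in opposite directions, and for 63 neither line's own change passed. Across all 19775 genes the changes of both lines correlated (Pearson r = 0.58, a description over genes, which are not independent), with an SD over genes of 0.21 in C42B and 0.31 in LNCaP.

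**Figure D1:**
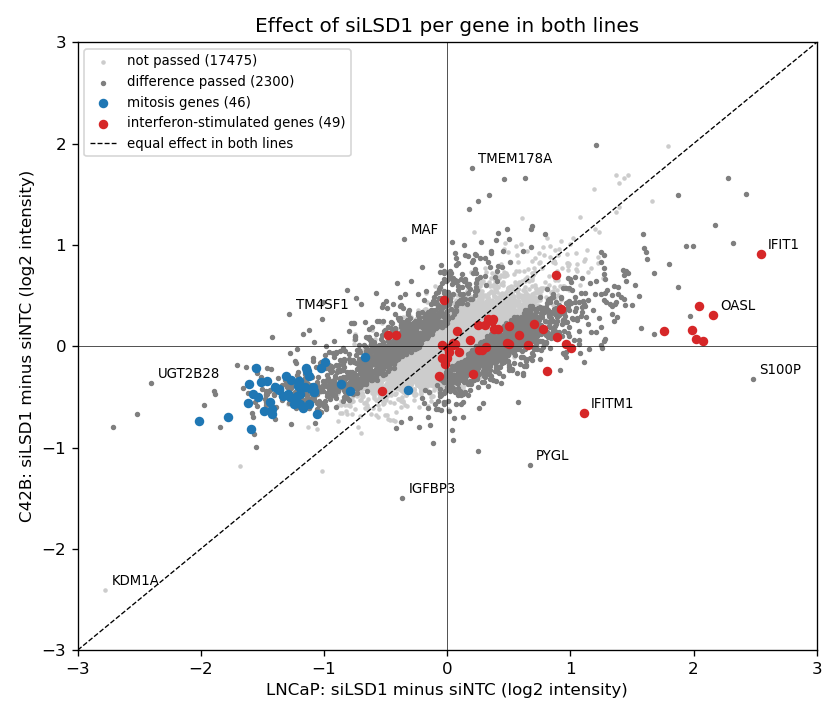
Change of each of 19775 genes with siLSD1 in LNCaP (horizontal axis) and C42B (vertical axis), both as log2 intensity with siLSD1 minus siNTC, means of 3 arrays per group. Distance from the dashed line of equal change is the difference tested. Mitosis genes (blue), SGO1 aside, lie left of and above the line, and the interferon-stimulated genes that stand out (red) lie to its right, with S100P, PYGL and IFITM1 below 0 in C42B.

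Interferon-stimulated genes held the largest share of differences below 0 among the 41 lists. They encode the antiviral proteins that cells make after sensing foreign or misplaced nucleic acid. Of 49 listed and measured, 19 had a difference below 0 that passed, 2 had one above 0 and 28 did not pass. Their median difference was -0.24, and their median change was 0.06 in C42B and 0.36 in LNCaP. In the separate tests, 31 rose and 3 fell in LNCaP, and 13 rose and 4 fell in C42B. Of the 49, 11 were dim in all 4 groups. The interferon-induced gene GBP2, described further below, was not on the list and had a passing difference of 1.10.

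IFIT1, which binds viral RNA with an unusual cap, read 10.82, 10.997 and 10.83 with siLSD1 in LNCaP against 8.15, 8.44 and 8.41 with siNTC. C42B arrays read 6.67, 6.88 and 6.84 against a dim 5.89, 5.76 and 6.00. The gene thus rose in both lines without overlap, 5.86-fold in LNCaP and 1.89-fold in C42B, and the difference was -1.63 ± 0.13 (limma, adjusted p = 2.3e-05). OASL, a relative of the oligoadenylate synthetases that boosts RNA sensing, stood at 9.92, 9.98 and 9.99 against 7.74, 7.81 and 7.86 in LNCaP. Its C42B values were 7.26, 7.27 and 7.26 against 7.03, 6.89 and 6.93. It also rose in both lines, by 2.16 in LNCaP but only 0.31 in C42B, a difference of -1.85 ± 0.08 (adjusted p = 8.7e-08).

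Several others responded in LNCaP without a passing change in C42B on the probe set used. IFIT2, an IFIT1 relative, read 7.96, 8.22 and 8.04 with siLSD1 in LNCaP and 6.08, 6.21 and 5.88 with siNTC. In C42B the arrays overlapped, at 6.86, 6.12 and 6.18 against 6.12, 6.34 and 6.50, with replicate 1 of siLSD1 above the rest. Its difference was -1.95 ± 0.24 (adjusted p = 0.0003). Another IFIT2 probe set, brighter on the siRNA arrays, rose by 0.87 in C42B and 2.66 in LNCaP, a difference of -1.78. For IFIT3, given below, another probe set, dim in 2 of the 4 groups, rose by 0.93 and 2.73, a difference of -1.80. Whether IFIT2 and IFIT3 changed in C42B thus depends on the probe set. CXCL10, the chemokine that attracts activated T cells, was near or under 6 in every group but LNCaP siLSD1, at 7.81, 7.95 and 8.12 there and 5.69, 6.21 and 5.74 with siNTC. Its difference was -2.03 as measured and -1.96 with dim means raised to 6. RSAD2 (viperin), dim in 3 of the 4 groups, gave -1.83 and IFIT3 -1.61, with changes in LNCaP of 1.99 and 1.76 and in C42B of 0.16 and 0.15. PLAAT4, a phospholipase and acyltransferase that is not on the list, behaved likewise in LNCaP with a rise of 1.97, and its difference was -1.68. HERC5, the ligase that attaches ISG15 to proteins, rose in both lines, by 2.04 and 0.39, with a difference of -1.65 ± 0.12.

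IFITM1, which blocks virus entry at the membrane, moved in opposite directions. LNCaP values were 8.58, 8.80 and 8.68 with siLSD1 against 7.59, 7.74 and 7.39, and C42B values were 6.35, 6.24 and 6.14 against 6.96, 6.89 and 6.85. No array crossed over in either line. It rose by 1.11 in LNCaP and fell by 0.66 in C42B, a difference of -1.77 ± 0.13 (limma, adjusted p = 1.3e-05). ISG15, the ubiquitin-like modifier, did the same on a smaller scale, with 0.81 in LNCaP, -0.24 in C42B and a difference of -1.05.

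The remaining members with a passing difference below 0 were IFI27 at -1.02, DDX60 at -0.94, BST2 at -0.81 and CXCL11 at -0.65. Below those came OAS1 at -0.61, IFI44 at -0.56, HERC6 and IFI35 at -0.49 each, LGALS3BP at -0.48 and IFITM3 at -0.46. CXCL11 was dim in all 4 groups. Those above 0 were SP100, a nuclear body protein, at 0.53, and GBP1, a guanylate-binding protein dim in all 4 groups, at 0.59. SP100 fell by 0.42 in LNCaP and did not pass in C42B. Classical members of the same class gave differences near 0: MX1 -0.07 ± 0.12, OAS3 0.08 ± 0.09 and USP18 0.05 ± 0.10. OAS3 fell in both lines, by 0.45 in C42B and 0.53 in LNCaP.

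**Figure D2:**
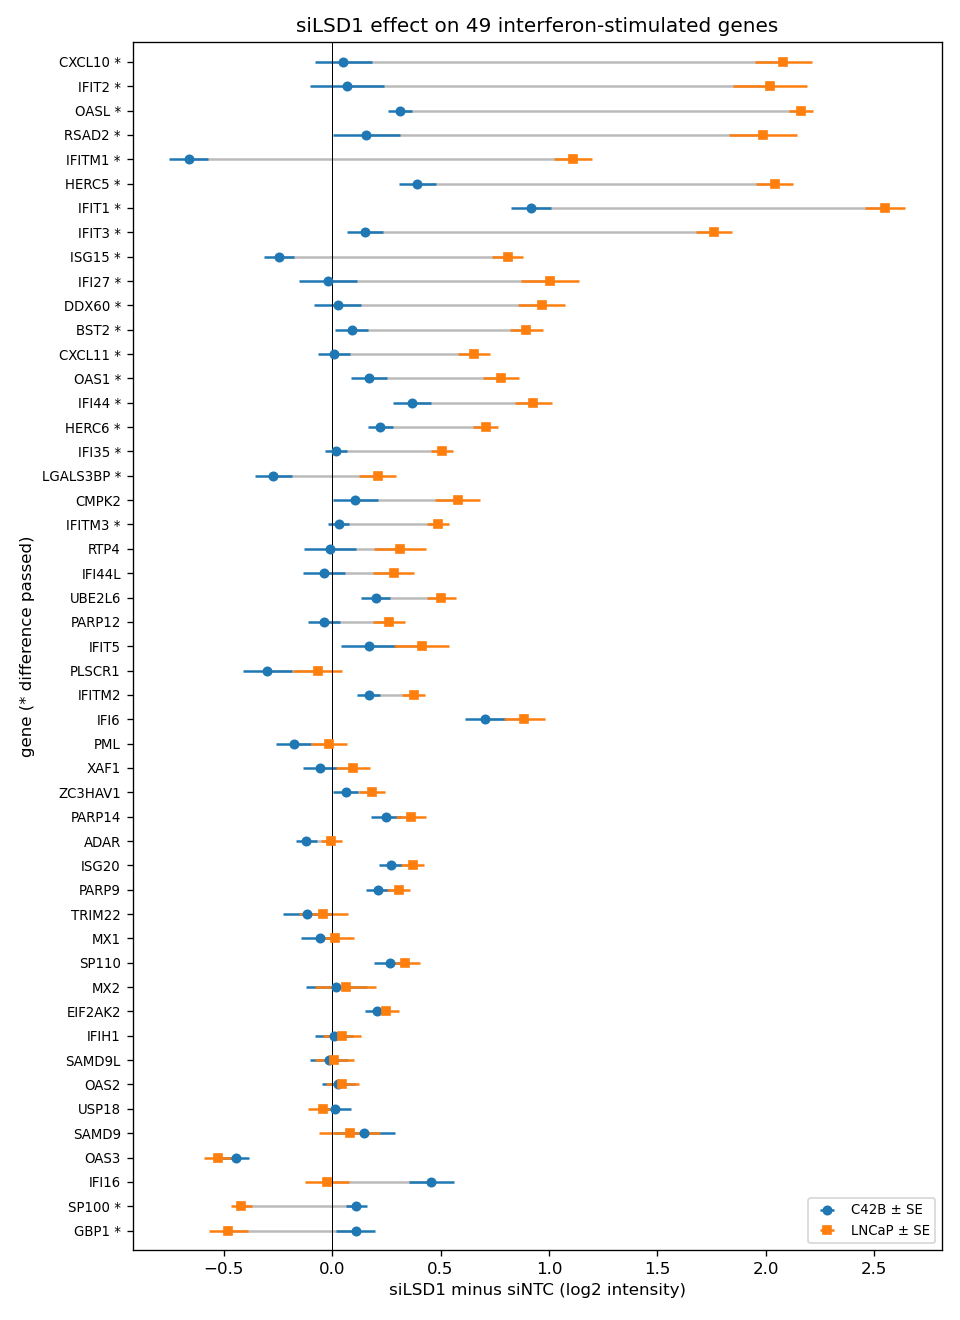
Change with siLSD1 (log2 intensity, siLSD1 minus siNTC) of the 49 interferon-stimulated genes in C42B (blue circles) and LNCaP (orange squares), with standard errors from the limma fit over 3 arrays per group; asterisks mark the 21 genes whose difference passed. LNCaP lies to the right of C42B in the 8 rows at the top by at least 1.61, while for MX1, OAS3 and USP18 both lines lie close together.

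The promoters of these genes are shown because members that moved differently share the same letters. The windows come from RefSeq on GRCh38.p14 and run from 250 bases before to 50 after a transcript start. The letters GAAA, any 2 bases and GAAA again, the core of the element bound by interferon response factors and the STAT complex, were searched on both strands. They occurred in 33 of the 58 windows of listed genes (56.9%), against 3.57% of all 35116 windows in the table. Among members with a difference below 0, 16 of 21 windows held them, and among those that did not pass, 16 of 34. A gene can have several windows. Counted by gene, the letters occurred in 13 of 17 (76.5%) and 14 of 22 (63.6%). Over all 1200 genes with a difference below 0 the share was 3.39% of windows, against 3.02% for all genes tested. Each stretch is written 5′ to 3′ along the gene's strand, with the matched letters or their reverse complement in capitals.
IFIT1, chr10:89392497-89392539, plus strand: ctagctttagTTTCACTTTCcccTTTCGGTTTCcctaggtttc
IFIT3, chr10:89327831-89327894, plus strand: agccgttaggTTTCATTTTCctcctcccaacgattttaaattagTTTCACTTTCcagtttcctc
HERC5, chr4:88456984-88457064, plus strand: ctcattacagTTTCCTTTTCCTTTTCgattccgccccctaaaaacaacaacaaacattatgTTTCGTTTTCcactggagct
IFITM1, chr11:313990-314053, plus strand: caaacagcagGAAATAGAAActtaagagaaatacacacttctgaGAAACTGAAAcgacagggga
CXCL10, chr4:76023699-76023728, minus strand: tcatgttttgGAAAGTGAAAcctaattcac
RSAD2, chr2:6877622-6877651, plus strand: ctgtttcaacTTTCAGTTTCacatgtggaa
ISG15, chr1:1013374-1013409, plus strand: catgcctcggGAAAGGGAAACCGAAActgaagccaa
MX1, chr21:41420559-41420588, plus strand: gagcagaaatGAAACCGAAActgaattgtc
OAS3, chr12:112938321-112938481, plus strand: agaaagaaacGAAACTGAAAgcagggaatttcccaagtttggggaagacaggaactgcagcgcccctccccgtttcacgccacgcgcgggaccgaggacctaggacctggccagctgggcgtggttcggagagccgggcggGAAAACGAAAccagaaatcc
MX1 and OAS3, whose differences were near 0, hold the letters as do IFIT1 and IFIT3. A match describes these windows and is not evidence of binding. IFIT2, OASL and USP18 were not matched to a window.

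Genes upstream in the same response moved less. Of 27 genes for RNA sensing and interferon signalling, 4 had a difference below 0 and none above 0, and the median was -0.08. IRF9, the DNA-binding subunit of the interferon-activated STAT complex, read 8.91, 8.98 and 8.89 with siLSD1 in LNCaP against 8.39, 8.12 and 7.86. In C42B it read 7.75, 7.58 and 7.77 against 7.79, 7.75 and 7.45. It rose by 0.81 in LNCaP alone, a difference of -0.77 ± 0.17 (limma, adjusted p = 0.011). IRF7, which amplifies interferon production, fell by 0.42 in C42B and changed by 0.01 in LNCaP. IFNGR2, a chain of the interferon gamma receptor, gave -0.44 and TICAM1, the adaptor of an endosomal RNA receptor, -0.38. The RNA sensor IFIH1 had a difference of -0.04 ± 0.12. IFNB1, which encodes interferon beta, was dim in all 4 groups and did not pass, with -0.20 ± 0.11.

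Antigen presentation gave 4 genes below 0 and 2 above 0 out of 24. All 4 below 0 were class I heavy chains, namely HLA-B at -0.61, HLA-C at -0.48, HLA-F at -0.39 and HLA-E at -0.26, and each rose in LNCaP, by 0.70, 0.58, 0.45 and 0.39. These genes are alike in sequence, so their probes may share signal. TAP2, a subunit of the peptide transporter, fell in LNCaP and gave 0.31, a call lost in 14 of 23 alternative fits. PDIA3, a chaperone that helps load class I molecules, rose by 0.65 in C42B and gave 0.51, although its second brightest probe set gave -0.06. Of 25 NF-kB and inflammatory genes 1 lay below 0 and 2 above 0, or 1 to 3 and 0 to 2 without single arrays. The passing share of this list was near the 11.6% of all genes tested.

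Mitosis genes showed the most uniform difference. They build the spindle and kinetochores and drive chromosome segregation. Of 46 listed, 45 had a passing difference above 0 and none below 0, against 5.56% of all genes above 0. All 46 fell in LNCaP and 38 fell in C42B, with median changes of -1.26 and -0.44, and the median difference was 0.82. The genes thus fell in both lines, and fell further in LNCaP. The exception was SGO1, dim in all 4 groups, at -0.12.

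NUF2, a kinetochore protein that holds microtubules, had the largest difference of the list. It read 7.73, 7.98 and 8.07 with siLSD1 in LNCaP against 9.32, 9.68 and 9.44. C42B read 10.07, 10.30 and 10.12 against 10.47, 10.46 and 10.20, where the groups overlapped. It fell by 1.56 in LNCaP, changed by -0.21 in C42B without passing, and gave a difference of 1.34 ± 0.16 (limma, adjusted p = 0.00025). KIF14, a kinesin of the midbody, stood at 6.93, 7.18 and 7.13 against 9.07, 9.18 and 9.02 in LNCaP. In C42B it was 8.43, 8.55 and 8.57 against 9.25, 9.33 and 9.17. Both lines separated fully, with changes of -2.01 in LNCaP and -0.74 in C42B and a difference of 1.28 ± 0.11. SGO2, which guards centromeric cohesin, gave 1.23 ± 0.21. Smallest among the passing members were CENPA, the centromeric histone, at 0.34 and PLK4, the kinase of centriole duplication, at 0.39.

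Genes for DNA replication followed. Of 45 measured, 41 had a difference above 0 and none below 0, with a median of 0.59 and median changes of -0.36 in C42B and -0.94 in LNCaP. CDC6, which loads the replicative helicase, read 7.95, 7.91 and 7.94 with siLSD1 in LNCaP against 9.13, 9.16 and 9.22. C42B read 9.14, 9.09 and 9.03 against 9.30, 9.23 and 9.18. It fell by 1.23 in LNCaP, and the change of -0.15 in C42B did not pass although the arrays separated. The difference was 1.08 ± 0.08 (adjusted p = 1.2e-05). The second probe set of CDC6 changed by -0.41 in C42B and -1.09 in LNCaP. DTL, part of the ligase that destroys the licensing factor CDT1, gave 1.25 ± 0.15. MCM10, a replication initiation factor, fell in both lines and gave 1.08 ± 0.08. PCNA, the sliding clamp, fell by 0.90 in LNCaP and changed by -0.07 in C42B.

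DNA repair genes gave 14 above 0 and none below 0 out of 27, with a median of 0.45. BRCA1, of homologous recombination, fell by 1.31 in LNCaP and 0.31 in C42B, and its difference was 1.00 ± 0.10. XRCC2, a DNA repair gene, fell by 0.78 in LNCaP and changed by 0.23 in C42B without passing there. Among 37 cell cycle regulators, 11 lay above 0 and 2 below 0, with a median of 0.22. E2F8, a repressive E2F factor, fell in both lines and gave 1.06 ± 0.10. FOXM1, the activator of mitotic genes, fell by 1.17 in LNCaP and 0.44 in C42B. E2F7 gave 1.05 on its brightest probe set and -0.15 on the second. MYBL1, a MYB family factor, gave 1.85 as measured and 0.86 with its dim LNCaP siLSD1 mean raised to 6, and its other probe sets gave 0.22 and 0.02. Below 0 were the inhibitor CDKN1C at -0.63 and E2F5 at -0.52, both of which rose in LNCaP only.

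Promoters of these groups carry different letters. TTTGAA, the core of the cell cycle homology region bound by DREAM complexes and FOXM1 partners, occurred on either strand in 32 of 48 windows of mitosis genes (66.7%), against 15.2% of all windows. With CCAAT, the NF-Y box, in the same window the figures were 24 of 48 and 5.90%. The letters TTTCCCGC, TTTGGCGC, TTTGCCGC or TTTCGCGC, versions of the E2F site, occurred in 22 of 50 windows of replication genes (44.0%), against 3.31% of all. In the 1309 windows of all genes with a difference above 0, the shares were 17.7% for TTTGAA, 8.79% with CCAAT and 7.18% for the E2F letters. In the 21490 windows of all genes tested they were 12.3%, 4.85% and 4.07%. The stretches below show the same 3 motifs in members with large differences, again with matches on either strand in capitals.
NUF2, chr1:163321960-163321985, plus strand: aggcggcaagTTTGAAaagtgatgac
KIF14, chr1:200620735-200620783, minus strand: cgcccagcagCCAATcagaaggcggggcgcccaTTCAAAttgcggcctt
CDC20, chr1:43358793-43358940, plus strand: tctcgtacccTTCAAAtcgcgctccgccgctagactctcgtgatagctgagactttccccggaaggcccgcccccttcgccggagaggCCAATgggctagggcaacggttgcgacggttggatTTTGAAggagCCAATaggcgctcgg
CDC6, chr17:40287876-40287903, plus strand: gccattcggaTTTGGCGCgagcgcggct
DTL, chr1:212035730-212035757, plus strand: gtgacgtcagTTTGGCGCggagtttggc
CDC20, the activator of the anaphase-promoting complex, fell by 1.62 in LNCaP and 0.56 in C42B, a difference of 1.06. The windows of SGO2 and MCM10 did not hold the letters searched for their lists.

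**Figure D3:**
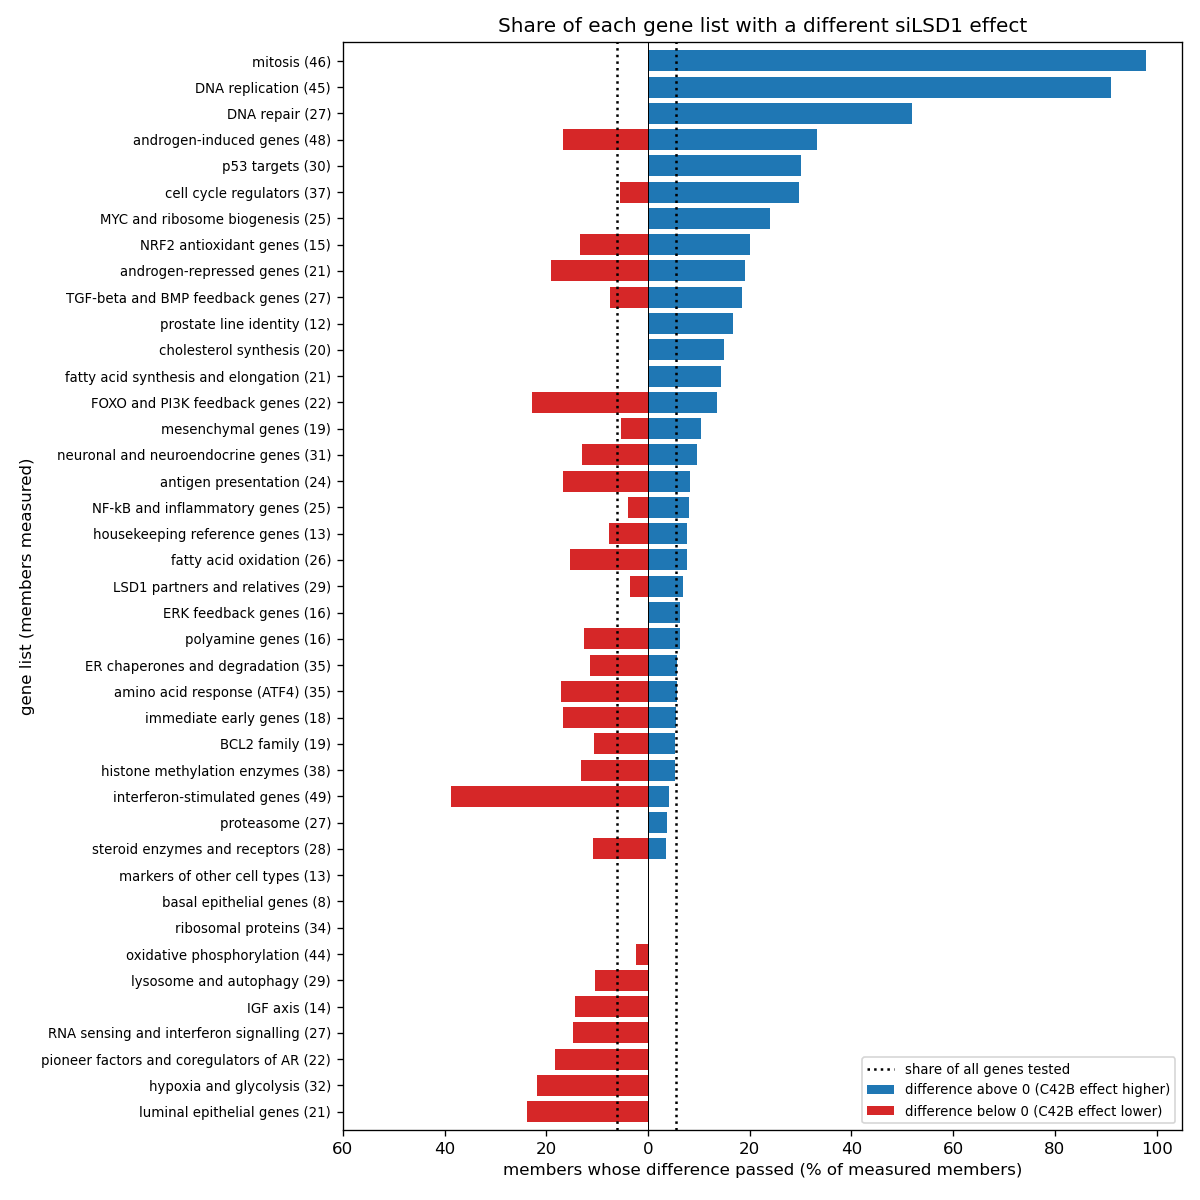
Share of the measured members of each of 41 gene lists whose difference passed above 0 (blue, to the right) or below 0 (red, to the left), with list sizes in parentheses; dotted lines mark the shares of all genes tested, 5.56% and 6.07%. Mitosis and DNA replication reach furthest right at 45 of 46 and 41 of 45, interferon-stimulated genes furthest left at 19 of 49, and 3 lists have no passing member.

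Androgen-regulated genes split. Of 48 androgen-induced genes, 16 had a difference above 0 and 8 below 0, with a median of 0.15. The count above 0 was 9 without C42B siLSD1 replicate 2 or 3, 10 without C42B siNTC replicate 3, LNCaP siLSD1 replicate 1 or LNCaP siNTC replicate 3, and 20 without LNCaP siNTC replicate 1. The medium differed along with the line, and these cannot be told apart. MAF, a bZIP transcription factor, read 9.27, 9.29 and 9.44 with siLSD1 in C42B against 8.27, 8.28 and 8.27. LNCaP read 9.53, 9.97 and 9.93 against 9.91, 10.35 and 10.21, where the groups overlapped and replicate 1 was the lowest array of each. It rose by 1.06 in C42B and fell by 0.35 in LNCaP, a difference of 1.41 ± 0.17 (limma, adjusted p = 0.00028).

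GNMT, a glycine methyltransferase, also moved in opposite directions. Its C42B values were 9.96, 10.05 and 9.91 against 9.38, 9.36 and 9.32, and its LNCaP values 9.06, 9.16 and 9.11 against 9.38, 9.60 and 9.58. Neither line's groups overlapped, and the difference was 1.03 ± 0.09. BMPR1B, a BMP receptor, rose by 1.03 in C42B with 0.28 in LNCaP, and all of its 3 probe sets gave differences of 0.75 or more. FKBP5, the chaperone of steroid receptors, fell by 0.37 in LNCaP and changed by 0.09 in C42B. SLC45A3, or prostein, rose in both lines, by 1.19 and 0.69, and KLK2, a kallikrein, by 0.74 and 0.40. Their second brightest probe sets gave smaller differences of 0.10 and 0.18 that did not pass, and another of KLK2 gave -0.19. For the best known targets there was no passing difference: TMPRSS2 rose by 0.77 in each line (0.00 ± 0.07), and KLK3, or PSA, by 0.40 and 0.36 (0.04 ± 0.09).

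On the other side, TSC22D3, a glucocorticoid-induced leucine zipper gene also listed as androgen-induced, rose by 0.75 in LNCaP alone, giving -0.70 ± 0.10. The androgen arrays described below did not show TSC22D3 as induced in C42B. NDRG1, a stress-responsive gene, fell by 0.40 in C42B and rose by 0.25 in LNCaP, giving -0.65 ± 0.09. HPGD, which breaks down prostaglandins, was dim in both C42B groups at 4.09, 3.79 and 3.78 against 3.85, 3.92 and 3.74. In LNCaP it rose from 6.61, 6.53 and 6.23 to 7.46, 7.78 and 7.95, so only the LNCaP change is readable.

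Among 21 androgen-repressed genes 4 lay above 0 and 4 below 0. UGT2B28, which conjugates androgens for excretion, had the largest difference above 0 of the genes with a dim group. It fell in LNCaP from 9.69, 9.73 and 9.48 to 7.14, 7.31 and 7.23. In C42B it went from 6.37, 6.26 and 6.05 to 6.04, 5.74 and 5.82, close to the dim limit. The difference was 2.04 ± 0.14 (limma, adjusted p = 1.2e-05). UGT2B15 fell by 1.57 in LNCaP and 0.87 in C42B, a difference of 0.70 ± 0.09. The genes of this family are close in sequence, so their probe sets may share signal. AKR1C3, which makes testosterone from androstenedione, was dim in C42B at 4.54, 4.19 and 4.50 against 4.23, 4.26 and 4.38, and rose in LNCaP from 6.06, 5.83 and 6.01 to 7.73, 7.48 and 7.72. Its difference was -1.55 as measured and -1.64 with dim means raised to 6. ACKR3, a chemokine scavenger receptor, fell by 0.44 in C42B only, and TGFBR3 fell there by 0.26. A second bright probe set of ACKR3 changed by -0.79 in C42B and -0.36 in LNCaP. ADGRV1, an adhesion receptor, gave 0.67 on its brightest probe set and -0.28 on a dim second.

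Beyond the shared enzyme AKR1C3, steroid enzymes and receptors gave HSD11B2, which inactivates cortisol, at -0.43, the progesterone receptor gene PGR, dim in 2 of the 4 groups, at -0.43 and HSD17B4 at 0.27, out of 28. The HSD17B4 call was lost in 9 of 23 alternative fits. Of 22 pioneer factors and coregulators of the androgen receptor, 4 lay below 0 and none above 0, with 2 below 0 without LNCaP siLSD1 replicate 2. These were the coactivators NCOA2 at -0.40 and NCOA4 at -0.30 and the demethylases KDM4B at -0.34 and KDM4C at -0.28. NCOA2 and KDM4B had opposite signs on their second probe sets, which did not pass. Of 29 partners and relatives of LSD1, the passing ones were HDAC2 at 0.43, CTBP2 at 0.29 and L3MBTL3 at -0.49. That is 10.3% of the list, against 11.6% of all genes tested. None passed without LNCaP siLSD1 replicate 2, and the count above 0 was 0 to 4 over all single arrays left out, with 0 also without C42B siLSD1 replicate 3 and 4 without LNCaP siNTC replicate 1. The CTBP2 call was lost in 9 of 23 alternative fits. HDAC2, the deacetylase of the CoREST complex, fell by 0.51 in LNCaP and changed by -0.07 in C42B. RCOR1, which encodes CoREST itself, did not pass, with -0.27 and an adjusted p of 0.089.

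Some of the largest single differences fell outside these groups. S100P, a calcium-binding S100 protein, had the largest of all. In LNCaP it read 10.62, 10.75 and 10.70 with siLSD1 against 8.14, 8.32 and 8.17. C42B read 7.85, 7.76 and 7.76 against 8.15, 8.17 and 8.02. The arrays separated in both lines, upward by 2.48 (5.58-fold) in LNCaP and downward by 0.32 in C42B. The difference was -2.80 ± 0.09 (limma, adjusted p = 1.5e-08). PYGL, liver glycogen phosphorylase, fell in C42B from 9.07, 9.20 and 9.11 to 7.79, 8.19 and 7.90, and rose in LNCaP from 7.71, 7.49 and 7.74 to 8.31, 8.28 and 8.36. It gave -1.84 ± 0.13, with the larger part of the change in C42B.

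TM4SF1, a membrane protein of growing epithelium and endothelium, led the genes above 0 that were bright in all groups. It read 7.30, 7.42 and 7.32 with siLSD1 in LNCaP against 8.67, 8.69 and 8.54. In C42B it read 11.59, 11.64 and 11.59 against 11.32, 11.27 and 11.27. It fell by 1.28 in LNCaP and rose by 0.32 in C42B, a difference of 1.60 ± 0.08 (adjusted p = 2.8e-07). CDK19, a kinase of the Mediator complex, fell to 9.83 on all 3 LNCaP siLSD1 arrays from 11.80, 11.71 and 11.67. Its C42B values were 11.66, 11.75 and 11.71 against 12.15, 12.17 and 12.13. The difference was 1.45 ± 0.07, and of its other 3 probe sets a pair gave 1.55 and 0.81 and the last 0.07.

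The other leaders above 0 were led by changes in LNCaP. ZNF367, a zinc finger gene, fell there by 1.71, FAM111B, a protease gene, by 1.42, ESCO2, which acetylates cohesin, by 1.63 and SHCBP1 by 1.57, and none of these passed in C42B. Their differences ran from 1.36 to 1.52. TMX1, a thioredoxin of the endoplasmic reticulum, fell by 1.89 in LNCaP and changed by -0.47 in C42B with an adjusted p of 0.053. ZNF385B fell by 1.17 in LNCaP, and its 3 probe sets gave 1.29, 1.38 and 1.84. Below 0, LAT2, an adaptor of immune receptors, gave -1.39, though a second, dim probe set gave 0.06. GPR27, an orphan receptor, MYNN, a zinc finger gene, and NIPA1, a magnesium transporter, rose by 1.26, 1.28 and 1.15 in LNCaP with 0.07 or less in C42B. NEXMIF, a neurite outgrowth factor, gave -1.15 ± 0.14.

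**Figure D4:**
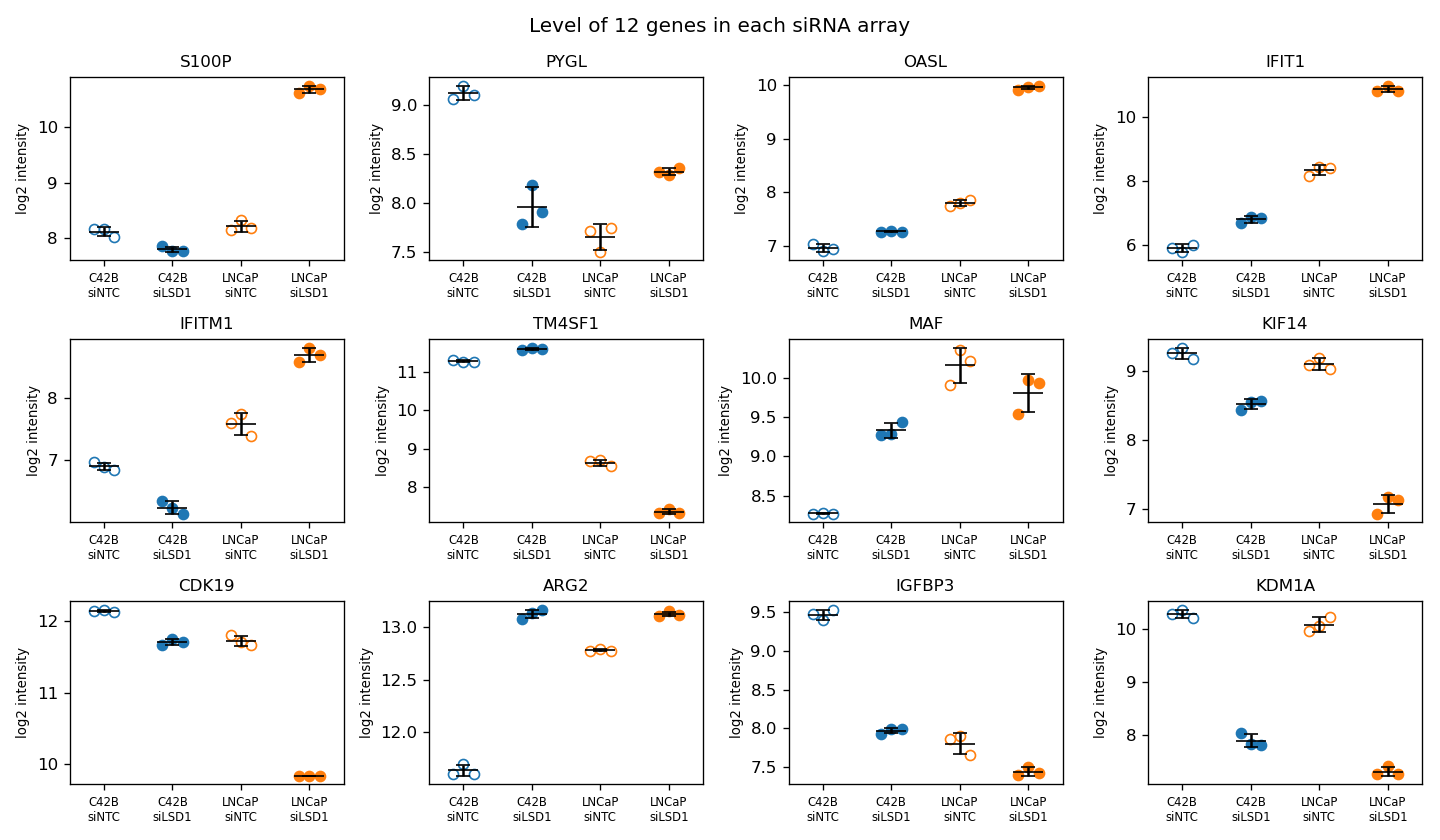
Log2 intensity of 12 genes on each of the 12 siRNA arrays, with C42B in blue and LNCaP in orange, siNTC open and siLSD1 filled; horizontal marks are means and bars are SDs of 3 arrays, and each panel has its own vertical range. S100P rises only in LNCaP, MAF rises only in C42B and ARG2 rises mainly there. PYGL falls only in C42B, IGFBP3 falls mainly there, and KDM1A falls in both.

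In 88 of the passing genes the change passed in both lines with opposite signs, 37 with C42B up and LNCaP down and 51 the other way, and 69 of these were bright in all groups. By the size of their smaller change, the leaders of the first kind were STOX2, GBP2, NXPE3, CLEC7A, GNMT, MATR3, ABRACL and GPNMB. CLEC7A, the receptor for fungal beta-glucan, read 10.10, 10.15 and 10.22 against 9.69, 9.90 and 9.57 in C42B, and 7.74, 7.43 and 7.68 against 8.73, 8.34 and 8.79 in LNCaP. It rose by 0.44 in C42B and fell by 1.01 in LNCaP, and 4 of its 6 probe sets gave passing differences above 0. STOX2 rose by 0.56 and fell by 0.82. GBP2, an interferon-induced GTPase that is not on the interferon list, rose by 0.53 in C42B and fell by 0.57 in LNCaP, contrary to IFITM1. GPNMB, a membrane glycoprotein, gave 0.87 and 1.31 on its 2 probe sets. The second changed by 1.33 in C42B and 0.02 in LNCaP, so the fall in LNCaP was seen on the first only.

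Of the second kind, the leaders were PYGL, IFITM1, S100P, the theta globin gene HBQ1, the neuronal gene DPYSL5, the NF-kB inhibitor TNFAIP3, the meiotic telomere gene MAJIN and the antisense gene CIRBP-AS1. HBQ1 fell by 0.55 in C42B and rose by 0.57 in LNCaP. TNFAIP3, which restrains NF-kB, read 6.51, 6.40 and 6.14 against 6.91, 6.74 and 6.58 in C42B and 7.59, 7.47 and 7.39 against 7.19, 7.07 and 7.22 in LNCaP. Its arrays separated in both lines, though by little, and the difference was -0.72 ± 0.14 (limma, adjusted p = 0.0067). Whether the probe set of CIRBP-AS1 also reads its sense partner was not tested.

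**Figure D5:**
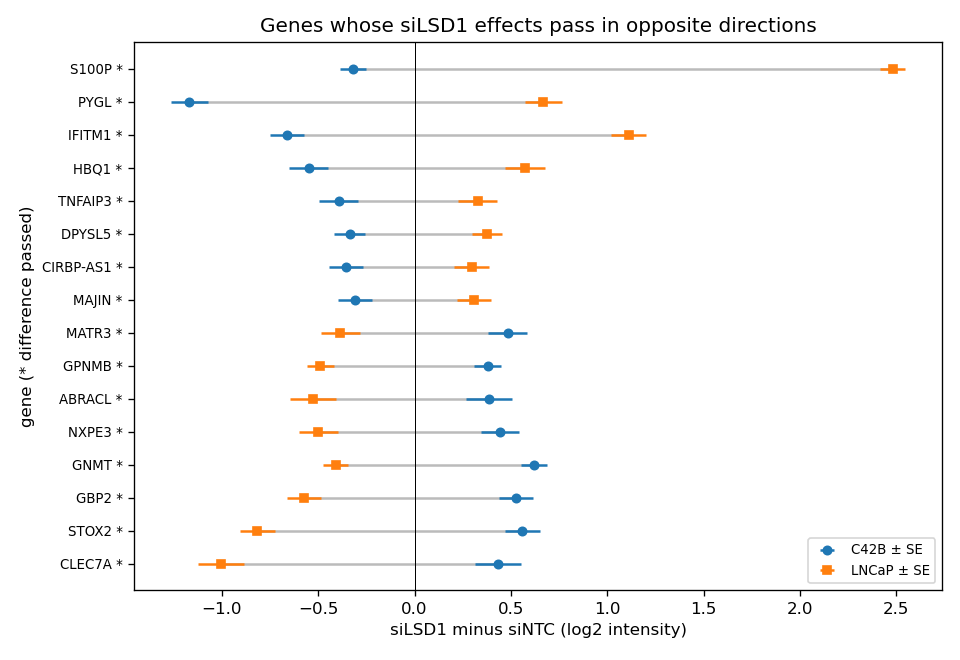
Change with siLSD1 (log2 intensity, siLSD1 minus siNTC, with standard errors from the limma fit over 3 arrays per group) of the 16 named genes whose changes passed in both lines in opposite directions, in C42B (blue circles) and LNCaP (orange squares). The 8 genes at the top rose in LNCaP and fell in C42B and the 8 below did the reverse, with S100P the widest apart at -2.80.

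Some genes were readable in 1 line only. TMEM178A, a membrane protein gene, was dim in LNCaP at 4.43 to 4.77 on every array. In C42B it rose from 6.47, 6.49 and 6.23 to 7.99, 8.18 and 8.31, or 3.39-fold. The sodium channel subunit gene SCN4B and the kinase gene LCK rose 3.13-fold and 2.56-fold in C42B from dim siNTC levels, and both stayed dim in LNCaP. LCK is best known from T cells, whose marker CD3E did not pass, with -0.09. Its second probe set gave 0.32 and did not pass. DNASE1L3, a secreted nuclease gene, rose in both lines, by 1.66 and 0.63. The reverse case was GAS2, a cytoskeletal gene, dim in C42B at 4.21 to 4.70 and lowered by 1.43 in LNCaP.

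p53 targets leaned above 0, with 9 of 30 passing above 0, none below 0 and a median of 0.21. The count was 5 without C42B siLSD1 replicate 2 or 3 or C42B siNTC replicate 1, and 6 without LNCaP siLSD1 replicate 1. On second brightest probe sets 2 of 17 members passed above 0. ZMAT3, which binds RNA and restrains growth, fell by 0.61 in LNCaP and changed by 0.19 in C42B, a difference of 0.80 ± 0.13. The pro-apoptotic BAX and SPATA18, of mitochondrial quality control, fell in LNCaP only and gave 0.56 and 0.52. Both calls were lost in 10 of 23 alternative fits. GADD45A, a growth arrest gene, rose by 0.52 in C42B alone. In the BCL2 family the other passing genes were the pro-apoptotic BOK at -0.51 and BAD at -0.47, of which BAD has a further probe set at 0.39 that passed.

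Signalling genes moved both ways. Of 27 TGF-beta and BMP feedback genes 5 lay above 0 and 2 below 0, the latter 1 to 4 without single arrays and highest without LNCaP siLSD1 replicate 1. ID1 and ID3, inhibitors of differentiation that BMP signals switch on, fell in LNCaP from 7.37, 7.73 and 7.67 to 5.53, 5.99 and 5.34, and from 7.56, 7.79 and 7.77 to 6.17, 6.09 and 6.21. In C42B they fell from 8.70, 8.61 and 8.76 to 8.17, 8.04 and 8.12, and from 8.49, 8.46 and 8.60 to 8.20, 8.33 and 8.23. Every array of siLSD1 was below those of siNTC, and the differences were 1.39 ± 0.19 and 1.28 ± 0.10. With the dim ID1 mean raised to 6 its difference was 1.01. SMAD5, which transmits BMP signals, fell by 1.24 and 0.47 and gave 0.77, and each of its 5 probe sets passed above 0. The receptor TGFBR1 rose by 1.14 in LNCaP and 0.45 in C42B, giving -0.69, and the decoy receptor BAMBI gave -0.38.

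IGFBP3, which binds IGF in the circulation and around cells, fell in C42B from 9.48, 9.39 and 9.53 to 7.93, 8.0 and 7.99. In LNCaP it went from 7.86, 7.90 and 7.65 to 7.39, 7.50 and 7.42. It fell further in C42B, 2.82-fold against 1.29-fold, a difference of -1.13 ± 0.10 (limma, adjusted p = 3.4e-05), one of few such cases. Of 14 genes of the IGF axis the only other to pass was IGF2R at -0.35, and 1 to 3 genes lay below 0 without single arrays. Among 22 FOXO and PI3K feedback genes 3 lay above 0 and 5 below 0. The counts were 1 to 5 and 2 to 5 without single arrays, with 5 above 0 without LNCaP siNTC replicate 1 and 2 below 0 without LNCaP siLSD1 replicate 2. The docking protein gene IRS1 rose by 0.61 in LNCaP and fell by 0.28 in C42B, giving -0.89 ± 0.12, and IRS2 rose in both, giving -0.45. TXNIP, which curbs glucose uptake, rose by 0.71 in LNCaP alone, giving -0.74 ± 0.07. INPP4B, a lipid phosphatase gene, gave 0.31 on its brightest probe set and -0.82 on a dim second, and both passed, so its direction depends on the probe set. The first call was lost in 9 of 23 alternative fits. PIK3R3, a PI3K subunit, gave 0.33. Of the immediate early genes 1 of 18 lay above 0 and 3 below 0, among them KLF4 at -0.46 and IER2 at -0.26, and of 16 ERK feedback genes PHLDA1 alone passed, at 0.37, with -0.08 on its second probe set. Calls for IER2 and PHLDA1 were each lost in 8 of 23 alternative fits.

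Epithelial genes of the luminal type gave 5 of 21 below 0 and none above 0. KRT19, a simple-epithelium keratin, rose in LNCaP from 5.93, 5.87 and 6.20 to 7.26, 7.39 and 7.37, and in C42B from 7.93, 8.12 and 8.15 to 8.30, 8.43 and 8.43. The difference was -1.02 ± 0.12 (limma, adjusted p = 0.00028). The tight junction gene OCLN gave -0.54, and all of its 4 probe sets passed below 0. OVOL1, which holds cells in an epithelial state, gave -0.50. No basal gene of 8 passed. Of 19 mesenchymal genes the smooth muscle actin gene ACTA2 gave 0.62 on its brightest probe set and -0.00 on a dim second, fibronectin (FN1) gave 0.37 and the dim LOX -0.57. Of 31 neuronal and neuroendocrine genes 3 lay above 0 and 4 below 0, or 1 to 3 and 2 to 4 without single arrays. PTBP2, the neuronal splicing regulator, rose strongly in both lines, from 9.0, 8.87 and 8.66 to 10.43, 10.50 and 10.58 in C42B and from 8.87, 9.14 and 9.15 to 11.12, 11.43 and 11.45 in LNCaP. Its difference was -0.62 ± 0.15. NEFL gave -0.46, ENO2 -0.35, MAP2 0.47 and UCHL1 0.48, calls lost in 8 to 11 of 23 alternative fits for all but NEFL.

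Metabolic lists showed smaller shares. Of 32 hypoxia and glycolysis genes 7 lay below 0 and none above 0, with a median of -0.16 and 16 falling in C42B against 8 in LNCaP. The count below 0 was 4 with the mean of all probe sets or with scale normalization, and 10 with array weights. On second brightest probe sets 0 of 23 members passed, with a median of -0.05. PFKFB4, which sets glycolytic flux, fell by 0.54 in C42B and changed by -0.07 in LNCaP, and the hypoxia-induced ANKRD37 fell by 0.31 and rose by 0.24. In fatty acid oxidation 4 of 26 lay below 0 and 2 above 0, or 2 to 4 and 1 to 3 without single arrays. PPARA, the nuclear receptor that drives this pathway, rose in LNCaP from 7.09, 6.89 and 6.95 to 8.04, 8.03 and 7.96, while C42B read 8.07, 8.27 and 8.27 against 8.14, 8.11 and 8.19. Its difference was -0.97 ± 0.10 (limma, adjusted p = 8e-05). The carnitine carrier SLC25A20 gave -0.36, ETFDH -0.29 and CROT 0.56, the last with -0.14 on its second probe set.

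In lipid synthesis 3 genes passed in each of the lists for cholesterol and for fatty acids, all above 0. INSIG1, the sterol sensor partner, fell by 0.90 in LNCaP alone and gave 0.72, and MSMO1 and ACAT2 gave 0.48 and 0.36. Other bright probe sets of INSIG1 changed by -0.34 and -0.37 in C42B. ELOVL5 and ME1 rose in C42B alone and gave 0.31 and 0.30, and ACSL1 rose in both and gave 0.27, or -0.00 on its second probe set. The call was lost in 14 of 23 alternative fits for ACSL1 and in 11 for ELOVL5, and the fatty acid count was 1 to 3 without single arrays, staying at 3 without C42B siLSD1 replicate 1 or LNCaP siNTC replicate 1. ARG2, mitochondrial arginase, rose in C42B from 11.61, 11.70 and 11.61 to 13.08, 13.14 and 13.16, and in LNCaP from 12.78, 12.80 and 12.78 to 13.11, 13.15 and 13.12. The rise was 2.81-fold in C42B and 1.27-fold in LNCaP, and the difference was 1.15 ± 0.07 (limma, adjusted p = 2.6e-06). Of the other polyamine genes PAOX gave -0.31 and SAT1 -0.29, the latter a call lost in 13 of 23 alternative fits.

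Stress lists were mixed. Of 35 amino acid response genes 2 lay above 0 and 6 below 0. Below 0 there were 3 without C42B siLSD1 replicate 2 or 3 and up to 8 without LNCaP siNTC replicate 1, and above 0 there were 1 to 3. SLC7A11, the cystine importer, rose by 0.86 in LNCaP alone and gave -0.69. Its other bright probe sets changed by 0.46 and -0.44 in C42B and by 0.92 and -0.25 in LNCaP. VLDLR, a lipoprotein receptor, fell by 0.45 in C42B alone and gave -0.56, and CARS1, a transfer RNA synthetase, gave -0.38 with 0.01 on its second probe set. MTHFD2, of mitochondrial folate metabolism, fell in both lines and gave 0.54, and the stress factor ATF3 gave 0.26, a call lost in 14 of 23 alternative fits. Of 35 genes for chaperones and degradation in the endoplasmic reticulum 2 lay above 0 and 4 below 0, or 1 to 5 and 2 to 4 without single arrays. In this list 17.1% passed, against 11.6% of all genes tested and 1966 of the 12080 bright in all 4 groups. ERO1B, an oxidase, rose by 1.39 in LNCaP and 0.59 in C42B and gave -0.80, EDEM1 gave -0.47 and DNAJB9 -0.35, the last a call lost in 10 of 23 alternative fits. SEC24D, a coat protein of secretory vesicles, rose by 1.12 in C42B and 0.41 in LNCaP and gave 0.71. Of 15 NRF2 target genes TXNRD1 gave 0.75, with -0.09 on a dim second probe set, GCLM 0.45 (lost in 9 of 23 alternative fits), ME1 0.30, SLC7A11 -0.69 and SRXN1 -0.32. The other probe sets of GCLM, bright in all 4 groups, gave 1.23 and 0.91, and both passed.

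Ribosome and chromatin lists closed the survey. Of 25 MYC and ribosome biogenesis genes 6 lay above 0 and none below 0, with a median of 0.16. The count was 3 without C42B siLSD1 replicate 2 or LNCaP siNTC replicate 2, and 4 to 8 without any other single array. On second brightest probe sets 0 of 13 members passed above 0 and 1 below 0. NIP7 fell by 0.58 in LNCaP alone and gave 0.70, PA2G4 fell in both and gave 0.51, and RRP1B gave 0.46. Second probe sets gave 0.11 for NIP7 and RRP1B each and 0.41 for PA2G4, and none of these passed. None of 34 ribosomal protein genes passed, and 1 of 44 oxidative phosphorylation genes did, NDUFS3 at -0.38. The proteasome gave PSMA2 alone of 27, at 0.26, with -0.05 on its second probe set. That call was lost in 12 of 23 alternative fits, and the list gave 0 to 2 genes without single arrays. Of 29 lysosome and autophagy genes 3 lay below 0, the lysosomal master regulator TFEB at -0.55, ATG4A at -0.48 and HEXA at -0.36, the last with 0.28 on its second probe set. The passing share of this list was 10.3%, against 11.6% of all genes tested. Of 38 histone methylation enzymes 2 lay above 0 and 5 below 0. In this list 18.4% passed, against 11.6% of all genes tested and 1966 of the 12080 bright in all 4 groups. EZH2, the Polycomb methyltransferase, fell by 0.92 in LNCaP and 0.33 in C42B and gave 0.59 ± 0.10, while its paralog EZH1 rose by 0.47 in LNCaP alone and gave -0.39. EHMT1 gave 0.38, KDM7A -0.41 and KMT5A -0.35, calls lost in 11, 10 and 12 of 23 alternative fits. Without single arrays the list gave 1 to 5 above 0 and 2 to 5 below 0, both highest without LNCaP siNTC replicate 1. Of 13 reference genes HPRT1 gave 0.32 and TBP -0.42.

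The series also holds 8 arrays of C42B treated with 100 nM dihydrotestosterone (DHT) for 16 h or with vehicle, which are other cultures and gave a further readout of the same genes. DHT raised 13.4% and lowered 19.4% of all genes. Of the 1200 genes with a difference below 0, 461 were lowered by DHT (38.4%, and 12.1% of the 3827 genes that DHT lowered), and 212 were raised (17.7%). Of the 1100 with a difference above 0, DHT lowered 310 (28.2%) and raised 262 (23.8%). The shares also moved with brightness. Among genes bright in all 4 siRNA groups, DHT lowered 27.7% of all, 41.0% of those below 0 and 28.5% of those above 0. In the same order, it raised 17.0%, 19.1% and 24.3%. Of the 42 genes above 0 whose change passed in both lines in 1 direction and was larger in C42B, DHT raised 24 and lowered 11. The list labels did not always hold in C42B. Among androgen-induced genes named above, DHT raised MAF, GNMT, BMPR1B, SLC45A3, KLK2, NDRG1 and HPGD, but TSC22D3 changed by -0.75 and passed. Among androgen-repressed genes, DHT lowered UGT2B15, ACKR3 and ADGRV1, but raised TGFBR3 by 0.22. UGT2B28 (0.19) and AKR1C3 (0.05) did not pass.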

How the data were processed

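RNA of the 12 siRNA samples was measured on 1-colour arrays with 54675 probe sets. The authors deposited linear intensities, processed with RMA in affy per the submitters' processing notes, with versions and batches not given in the sources used here. They were taken to log2. Each gene was read by its brightest probe set among the 41091 that name 1 gene, and other probe sets were left out of the main comparison. limma 3.58.1 in R 4.3.3 fitted 4 group means with 8 residual degrees of freedom, and the difference of effects was tested with Benjamini-Hochberg adjustment over 19775 genes. The fit was tested on simulated data. Lists and figures used Python 3.11.15 with numpy 2.4.6, pandas 2.3.3 and matplotlib 3.10.9.

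Genes were named by rule: KDM1A, the 12 largest differences per direction among passing genes bright in all 4 groups, 6 per direction with a dim group, up to 8 per direction with opposed changes, and up to 3 per direction of each list. Other names, such as MX1, KLK3 and the remaining interferon-stimulated genes, were added after their values were seen. Members and lists were chosen with earlier results of these data known. The alternatives were other probe sets, scalings, filters, variance models and fits without single arrays. Promoter windows are from RefSeq, GRCh38.p14, and the DHT comparison was added after seeing the data. The precision is limited by the number of arrays.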

Additional observations from a re-analysis of the deposited data

Results flagged for a closer look

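The difference between the lines was itself tested and passed for 2300 genes, by the limma contrast. Groups of 3 arrays are too small for a check of single outlying arrays. The 16 genes below passed that contrast and also passed in both lines with opposite signs.

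With a rise in C42B and a fall in LNCaP, the differences were 1.44 for CLEC7A, 1.37 for STOX2, 1.10 for GBP2 and 1.03 for GNMT. Next came NXPE3 at 0.94, ABRACL at 0.91, and GPNMB and MATR3 at 0.87 each. The other probe set of GPNMB changed by 0.02 in LNCaP and so showed no fall there. With a fall in C42B and a rise in LNCaP, they were -2.80 for S100P, -1.84 for PYGL, -1.77 for IFITM1 and -1.12 for HBQ1. TNFAIP3 followed at -0.72, DPYSL5 at -0.71, CIRBP-AS1 at -0.65 and MAJIN at -0.62.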

How the results depend on the processing

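Leaving out single arrays gave 738 to 1483 genes above 0 and 821 to 1577 below 0, and no passing gene changed sign. With the second brightest probe set (10523 genes) they were 447 and 431, of which 261 and 192 were shared with the reported calls. There, 266 reported genes had the opposite sign. Of the named genes that have such a probe set, only 49 kept their call, 50 no longer passed and 16 turned sign. Array weights gave 1726 and 1831. Median centring gave 1230 and 1000 (55.2% above 0) and scale normalization 1332 and 1004 (57.0%), against 47.8% as reported. With the replicate number as a block the counts were 978 and 1031, of which 868 and 930 were shared with the reported calls. Same-numbered arrays correlated at -0.0964 to 0.1989, so the numbers were not taken as pairs.

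The KDM1A difference passed at 0.37 among bright genes only (limma, adjusted p = 0.035), with values raised to 6 (0.042), with trended robust variances (0.024) and with all 20 arrays (0.018), and at 0.55 with scale normalization (0.014). Without single arrays it ran from 0.30 to 0.43, with adjusted p from 0.03 to 0.14, passing without LNCaP siNTC replicate 1. On the second brightest probe set the sign turned for LAT2 (0.0609), E2F7 (-0.15), PDIA3 (-0.0618), ADGRV1 (-0.28), NCOA2 (0.0595), KDM4B (0.14), CARS1 (0.0068), ACSL1 (-0.0040), CROT (-0.14), PSMA2 (-0.0466), HEXA (0.28), TXNRD1 (-0.0909), ACTA2 (-0.0012), PHLDA1 (-0.0823), INPP4B (-0.82) and HPRT1 (-0.0813). Of 162 named genes, 107 kept their call in every setting other than that one. Small lists moved by more than 1.5 times when 1 array was left out. Between 14.3% and 15.8% of members passed for RNA sensing, steroid enzymes, the BCL2 family and cholesterol synthesis. The same held for fatty acid synthesis, mesenchymal genes, the IGF axis and reference genes. These shares lie near the 11.6% of all genes tested. Signal near the dim limit bounds what can be read for genes dim in 1 line.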

Other observations

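Probe sets that name several genes or none were not part of the gene comparison. Of 13522 tested in the same way with limma, 124 had a passing difference above 0 and 132 one below 0.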
